A study of Mus musculus with 12 samples.

Results

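The solute carrier genes that move amino acids, glucose and lactate across membranes were examined as one group in open-chromatin data from mouse helper T cells. Members were the protein-coding genes whose symbol is Slc1a, Slc2a, Slc3a, Slc7a, Slc16a, Slc38a or Slc43a followed by a number, and 64 of 21896 protein-coding genes met that rule. A peak of open chromatin was given to a member when its centre lay within the gene, or otherwise when the nearest protein-coding gene within 50 kb was a member. This gave 797 of 222105 peaks, spread over 61 members, and left Slc16a4, Slc38a5 and Slc7a14 without a peak. Of the 797 peaks, 738 passed the filter on low counts and were tested, and the other 59 were not.

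The libraries came from ATAC-seq, which cuts accessible DNA with the transposase Tn5 and counts the pieces by position. Naive CD4+ T cells of spleen and dLN origin, from mice labelled C57/B6, were cultured into homeostatic Th17 cells (Th17Hom), an IL-17-producing helper T cell state. They carried either a wild-type glucocorticoid receptor (GR WT) or a conditional knockout of it (GR cKO), and were left untreated (control) or given dexamethasone (Dex), a synthetic glucocorticoid, for 2 days. Each of the 4 groups, WT control, WT Dex, cKO control and cKO Dex, had 3 libraries of 6000 sorted cells. All 12 carry the same description of culture and library protocol, and the labels do not tie them to separate animals or cultures. For the knockout, the Cre line and the deleted part of the receptor gene are not given in these sources, and neither is the age of the mice.

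Members of these families work as exchangers, uniporters or sodium- and proton-coupled carriers. Activated T cells are known to raise their uptake of glucose, glutamine, leucine and arginine, and to export lactate made by glycolysis. Several light chains of the Slc7 family reach the cell surface only when bound to the heavy chain CD98hc, encoded by Slc3a2, and leucine brought in by that pair is a signal for the kinase complex mTORC1. Glucocorticoids bind the receptor encoded by Nr3c1, which then acts on DNA as a transcription factor, and their effects on glucose and amino acid uptake are long known in other tissues.

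Promoter sequences (RefSeq, build GRCm38.p6, the same build as mm10) were held for 47 of the 64 members. The 250 bases before the annotated start are given for 5 members, 5′ to 3′ on the coding strand, because their starts differ in openness and in base composition. Slc2a1 (glucose transporter GLUT1) lies at chr4:119108495-119108744 on the plus strand and Slc3a2 at chr19:8713898-8714147 on the minus strand. Slc16a1 (lactate transporter MCT1) lies at chr3:104638414-104638663 on the plus strand and Slc7a11 (cystine and glutamate exchanger xCT) at chr3:50443614-50443863 on the minus strand. Slc1a2 (glutamate transporter GLT-1), at chr2:102706188-102706437 on the plus strand, had no peak over its annotated start, whereas the starts of the others did. Capitals mark letters that match a searched motif on either strand.
Slc2a1: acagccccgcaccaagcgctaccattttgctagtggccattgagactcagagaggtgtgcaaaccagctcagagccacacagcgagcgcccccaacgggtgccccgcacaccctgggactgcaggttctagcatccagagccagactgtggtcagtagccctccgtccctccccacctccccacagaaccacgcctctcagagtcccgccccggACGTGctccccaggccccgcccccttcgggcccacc
Slc3a2: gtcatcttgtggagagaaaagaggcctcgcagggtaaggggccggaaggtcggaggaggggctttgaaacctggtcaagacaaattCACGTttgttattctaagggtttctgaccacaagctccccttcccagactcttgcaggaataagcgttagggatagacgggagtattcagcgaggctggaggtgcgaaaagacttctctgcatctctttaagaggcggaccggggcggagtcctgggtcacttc
Slc16a1: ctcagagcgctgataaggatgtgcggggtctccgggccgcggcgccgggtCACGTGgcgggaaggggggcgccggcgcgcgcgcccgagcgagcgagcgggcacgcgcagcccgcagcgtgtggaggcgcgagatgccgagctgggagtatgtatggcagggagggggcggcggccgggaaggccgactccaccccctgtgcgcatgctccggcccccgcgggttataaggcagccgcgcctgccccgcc
Slc7a11: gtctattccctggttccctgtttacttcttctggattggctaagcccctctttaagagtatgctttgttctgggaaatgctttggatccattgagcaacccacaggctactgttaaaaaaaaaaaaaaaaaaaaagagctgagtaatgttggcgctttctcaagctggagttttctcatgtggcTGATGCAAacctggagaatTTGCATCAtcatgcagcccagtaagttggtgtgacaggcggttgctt
Slc1a2: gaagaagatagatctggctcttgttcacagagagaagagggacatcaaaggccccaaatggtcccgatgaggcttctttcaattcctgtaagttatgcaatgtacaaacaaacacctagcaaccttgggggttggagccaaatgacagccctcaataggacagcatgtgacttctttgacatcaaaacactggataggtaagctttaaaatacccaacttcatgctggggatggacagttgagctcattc

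The letters searched, on both strands, were AGAACA and TGTTCT spaced by 3 bases (a full glucocorticoid response element), TTNCATCA (an amino acid response element), CACGTG (an E-box) and ACGTG (the core of a hypoxia response element, which also lies inside every E-box match). In Slc7a11 the amino acid response letters occurred in opposite orientations at 2 places, and in Slc16a1 the capitals mark an E-box. In Slc2a1 and Slc3a2 they mark a hypoxia response core. The amino acid response letters were found in 2 of 47 members (4.26%, Slc7a11 and Slc7a7) and in 3.64% of 17491 genes. The E-box was found in 8 members (17.02%) and in 7.61% of genes, and the hypoxia core in 14 members (29.8%) and in 19.96% of genes. No member and 2 of 17491 genes (0.0114%) held the full glucocorticoid element in this window.

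Of the 47 members with a start entry, 28 (59.6%) had a tested peak over the start, against 61.9% of 17491 genes. With 1 start window per member, the upstream 250 bases of those 28 members held a median of 14.5 CpG dinucleotides (range 2 to 37), those of the 19 members without such a peak a median of 6 (range 1 to 18), and those of all genes a median of 10. Some members have several start entries, and for these a window with a peak was taken where there was one. For all genes the first listed window was taken, so the medians rest on different choices of window. Over all 30 member windows with a peak the range was 2 (Slc7a11) to 38 (a start of Slc7a6). Start peaks of members had a median level of 13.3 CPM (read counts scaled to library size) per kb of peak, and those of all genes 12.8. Over all tested peaks the medians were 3.26 CPM per kb for members and 3.34 for the whole table. Of the tested member peaks, 59.2% lay within a gene, against 65.0% of all tested peaks with a gene.

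Some features of the libraries bear on what follows. Total counts ran from 12988437 to 25081591 per library. The strongest 10% of peaks held 61.2% ± 0.772 (SD, n = 3) of counts without and 62.6% ± 1.52 with Dex in WT libraries. In cKO libraries they held 58.9% ± 1.27 without and 60.3% ± 1.88 with Dex. WT Dex replicate 3, at 60.8%, stood below the other WT Dex libraries, at 63.5% and 63.4%, and cKO Dex replicate 3, at 58.1%, below the other cKO Dex libraries, at 61.0% and 61.6%. All 7 T cell and all 7 Th17 markers had tested peaks, the strongest peak per gene having a median of 40.1 CPM in each list. Markers of other cell types were open as well, at lower medians. The 6 B cell markers had a median of 4.29 CPM (range 1.40 to 41.4, highest at Ebf1), and the 6 CD8 T and NK cell markers one of 13.8 CPM (range 2.84 to 24.6, highest at Gzmb). The 6 myeloid and dendritic markers had a median of 11.6 CPM (range 0.886 to 47.3, highest at Itgam). For the 6 erythroid and stromal markers it was 11.9 CPM, from Hbb-bs, without a peak, to Pecam1 at 49.9 CPM. Thus the strongest peaks of Ebf1, Itgam and Pecam1 lay above the medians of the T cell and Th17 lists. At Nr3c1, 0 of 24 tested peaks were called between genotypes by edgeR's quasi-likelihood test (unadjusted p under 0.05 at 4 untreated and 3 with Dex), and summed accessibility there was 102 to 118 CPM in WT control and 96.3 to 111 CPM in cKO control. These values do not check the knockout, since accessibility is not transcript or protein.

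Among 14 transporters known from T cell metabolism, openness at the start peak, or at the strongest peak within the gene where no start entry was held, spanned a wide range. Ranked by these peaks, Slc7a5, which encodes the leucine importer LAT1, came first. It had a mean of 56.8 CPM per kb over 12 libraries (range 49.9 to 60.2) at its strongest peak (chromosome 8, 121897705 to 121899113). At that peak its lowest library lay above the highest library of any of the other 13. Slc7a5, Slc2a3, Slc38a1 and Slc1a5 held no start entry, so strongest peaks stand beside start peaks in this order. Another Slc7a5 peak, from 121905552 to 121908700, had 16.7 CPM per kb, a level within the range of the other 13. The first place of Slc7a5 thus depends on which of its peaks is taken. Slc7a11 was the least open, with 4.39 CPM per kb (range 3.57 to 6.02), and did not overlap the other 13 either. Between them, each gene overlapped its neighbour in the order. The order ran from Slc7a1 (arginine transporter CAT1, 34.7 CPM per kb), Slc2a3 (glucose transporter GLUT3, 30.2) and Slc3a2 (29.4) through Slc2a1 (22.6) and Slc38a9 (lysosomal arginine sensor, 20.4). It went on through Slc7a6 (y+LAT2, 18.6), Slc38a2 (SNAT2, 17.5), Slc38a1 (glutamine transporter SNAT1, 16.1) and Slc43a2 (LAT4, 13.7) to Slc16a1 (12.9), Slc1a5 (glutamine exchanger ASCT2, 12.8) and Slc16a3 (lactate exporter MCT4, 11.7).

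**Figure D1:**
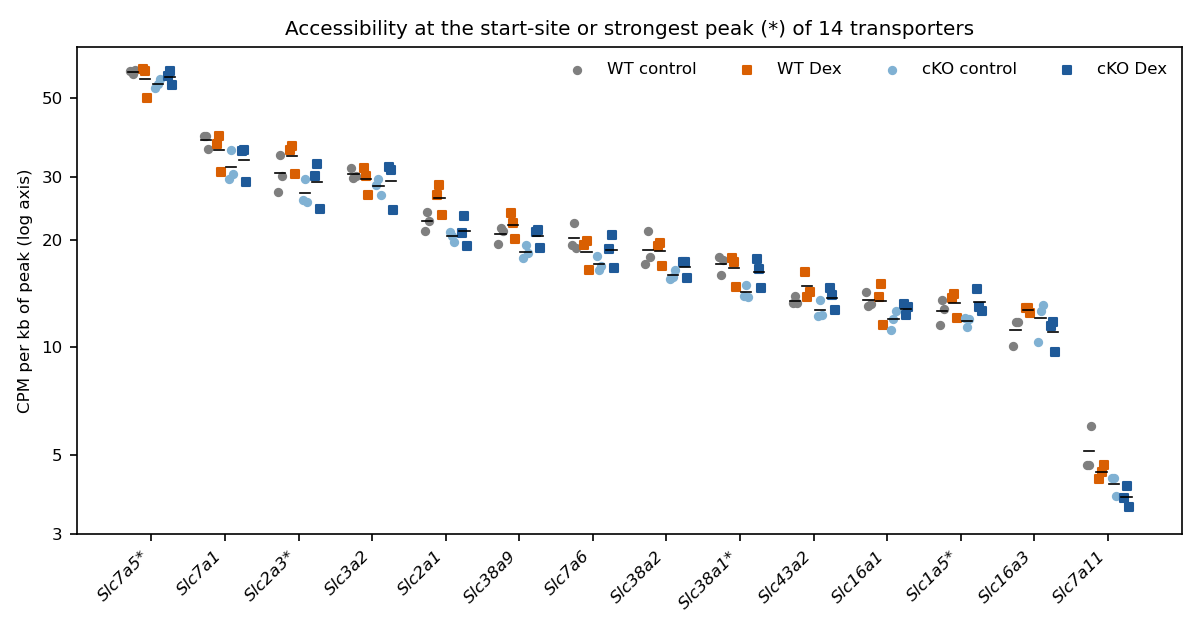
Accessibility in CPM per kb of peak (log axis) at the start-site peak, or at the strongest peak within the gene where the name carries an asterisk, of 14 transporters, with 1 point per library coloured by group and bars at group means (n = 3). At the peaks drawn, Slc7a5 (shown at its strongest peak) lies above and Slc7a11 below all others, while the 4 groups of 1 gene lie close together.

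The strongest member peaks were not all at starts. The highest mean level, 85.6 CPM, belonged to a peak on chromosome 10 from 40152095 to 40154185, 10.9 kb outside Slc16a10, which encodes the aromatic amino acid transporter TAT1, and it held 34.4% of the counts at that locus. At Slc16a1 the strongest peak (chromosome 3, 104615986 to 104616955) lay 22.2 kb outside the gene, with 53.5 CPM and 55.2 CPM per kb, above the 12.9 CPM per kb at its start. Slc2a1 had a 4215-base intragenic peak on chromosome 4 from 119124689 to 119128903 at 61.6 CPM, beside its start peak from 119107283 to 119109794 at 56.7 CPM. Slc7a1 (chromosome 5, 148398330 to 148400568, 77.8 CPM), Slc1a4 (the exchanger ASCT1, 62.5 CPM), Slc2a6 (the lysosomal carrier GLUT6, 56.2 CPM) and Slc43a2 (52.6 CPM) had their strongest peak over the start. A second strong Slc7a5 peak, from 121905552 to 121908700, had 52.7 CPM.

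Sums over all peaks of a locus, with those the filter left out, were highest at Slc16a10, which had 249.6 CPM and 40 tested peaks. It was followed by Slc2a1 (224.2), Slc38a1 (195.4), Slc43a2 (184), Slc7a5 (182.5) and Slc7a1 (155.5). Slc16a1 (153.1), Slc38a10 (149.7), Slc1a2 (148.4) and Slc3a2 (126.7) completed the leading 10. Per kb of peak the order differed, with Slc2a8 (intracellular GLUT8) first at 19.1 CPM per kb and Slc7a3 (arginine transporter CAT3) last at 1.94. By family, the median over members was 4.14 CPM per kb for Slc7a, 6.42 for Slc1a, 6.47 for Slc16a, 7.47 for Slc2a, 7.97 for Slc38a and 8.61 for Slc43a. The 2 Slc3a members had a median of 8.19, and members within a family differed widely, as from 2.46 to 19.1 CPM per kb in Slc2a.

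The first question was whether Dex changed openness at these genes when the receptor is present. None of the 738 transporter peaks was called in WT cells by edgeR's quasi-likelihood test (Benjamini-Hochberg adjusted p under 0.05 over 202587 peaks), where 0.534% of all tested peaks (1081) were called. An unadjusted p under 0.05 was reached by 62 member peaks (8.40%), against 8.32% of all. Of these, 25 were higher, against 4.23% of all peaks, and 37 lower, against 4.08%. With counts summed per gene, 0 of 61 members were called, against 1.24% of 17353 genes, and 3 members (4.92%) had an unadjusted p under 0.05, against 10.3%. DESeq2 called 1 member peak for Dex in WT, in Slc1a2, and 0 members on summed counts. The median log2 fold change of member peaks was -0.03, against -0.00 for all. At the background share, 738 peaks would hold only a few calls.

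The member peak with the smallest adjusted p lay within Slc1a2, on chromosome 2 from 102757101 to 102757524. It stood at 5.64, 7.84 and 7.09 CPM in untreated WT libraries and 3.66, 5.25 and 3.29 CPM in WT after Dex, so that all WT Dex libraries were below all WT control libraries. The log2 fold change was -0.76 ± 0.20 (SE, n = 3 per group; 95% interval -1.17 to -0.36), with an edgeR adjusted p of 0.063. Whether it was called depended on the fit. It passed with total counts (edgeR adjusted p 0.0171), loess offsets (0.0175), a replicate block (0.0149) and only the groups compared (0.022), and with the share of counts in the strongest peaks as a covariate (0.000303). It also passed without WT control replicate 1 (edgeR adjusted p 0.0406), WT Dex replicate 2 (0.0286), cKO control replicate 1 or 2 (0.0439 and 0.0338) or cKO Dex replicate 2 or 3 (0.046 and 0.0319), and leaving out 1 of the other libraries gave up to 0.359. The cKO libraries gave 4.2, 8.09 and 5.48 CPM untreated and 5.78, 5.86 and 4.38 CPM after Dex, with overlapping groups. The difference between the Dex effects was -0.61 ± 0.28, with an edgeR adjusted p of 0.856.

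A second Slc1a2 peak, from 102732877 to 102734027, lay in the other direction. It stood at 30.5, 30.7 and 31.7 CPM in untreated WT libraries and 44.6, 43.4 and 34.1 CPM in WT after Dex, again without overlap, WT Dex replicate 3 being nearest to the controls. The log2 fold change was 0.39 ± 0.11, with an edgeR adjusted p of 0.083, and in cKO cells it was 0.13 ± 0.11 (adjusted p 0.907). This call depends on the setting: without WT Dex replicate 3 the edgeR adjusted p was 0.0085 (log2 0.50), without cKO Dex replicate 3 it was 0.0333, and without WT Dex replicate 1 it was 0.467 (log2 0.32). It was also called with total counts (edgeR adjusted p 0.0172), loess offsets (0.0171), a replicate block (0.0182) and only the groups compared (0.0485), and by DESeq2 (adjusted p 0.0276). Slc1a2 encodes the main glutamate carrier of glia, and its annotated start, printed above, had no tested peak.

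Values of this kind did not gather in 1 family. A peak within Slc2a6 (chromosome 2, 27025410 to 27026483) stood at 10.2, 7.59 and 8.74 CPM in untreated WT libraries and 5.93, 6.70 and 5.44 CPM in WT after Dex, without overlap (log2 -0.54 ± 0.16, edgeR adjusted p 0.136). In Slc7a1, a peak from 148379462 to 148380285 stood at 15.5, 17.2 and 15.5 CPM in untreated WT libraries and 12.8, 11.4 and 11.5 CPM in WT after Dex (log2 -0.44 ± 0.13, edgeR adjusted p 0.140). The cKO libraries at that peak lay between 10.9 and 13.5 CPM in both treatments, close to WT Dex. Within Slc7a8, which encodes the exchanger LAT2, a peak from 54751750 to 54752267 on chromosome 14 stood at 5.42, 5.72 and 5.73 CPM in untreated WT libraries and 9.45, 7.87 and 6.86 CPM in WT after Dex (log2 0.51 ± 0.17, edgeR adjusted p 0.209). On summed counts Slc7a8 was also the member with the smallest adjusted p, 0.244, with a log2 of 0.29 ± 0.11. The other peaks nearest to the threshold were weak: 2 in Slc16a12 (log2 1.48 ± 0.46 and -0.69 ± 0.23) and 1 in the urate carrier gene Slc2a9 (log2 1.71 ± 0.53), with edgeR adjusted p of 0.162 to 0.230. On summed counts the next members were Slc7a12 (log2 0.93 ± 0.36), Slc7a1 (-0.14 ± 0.07), Slc2a13 (0.28 ± 0.15) and Slc2a3 (0.14 ± 0.08), with edgeR adjusted p of 0.28 to 0.56. Of these, Slc7a1 was called with total counts (edgeR adjusted p 0.0032), loess offsets (0.00188) and the share covariate (0.000925).

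**Figure D2:**
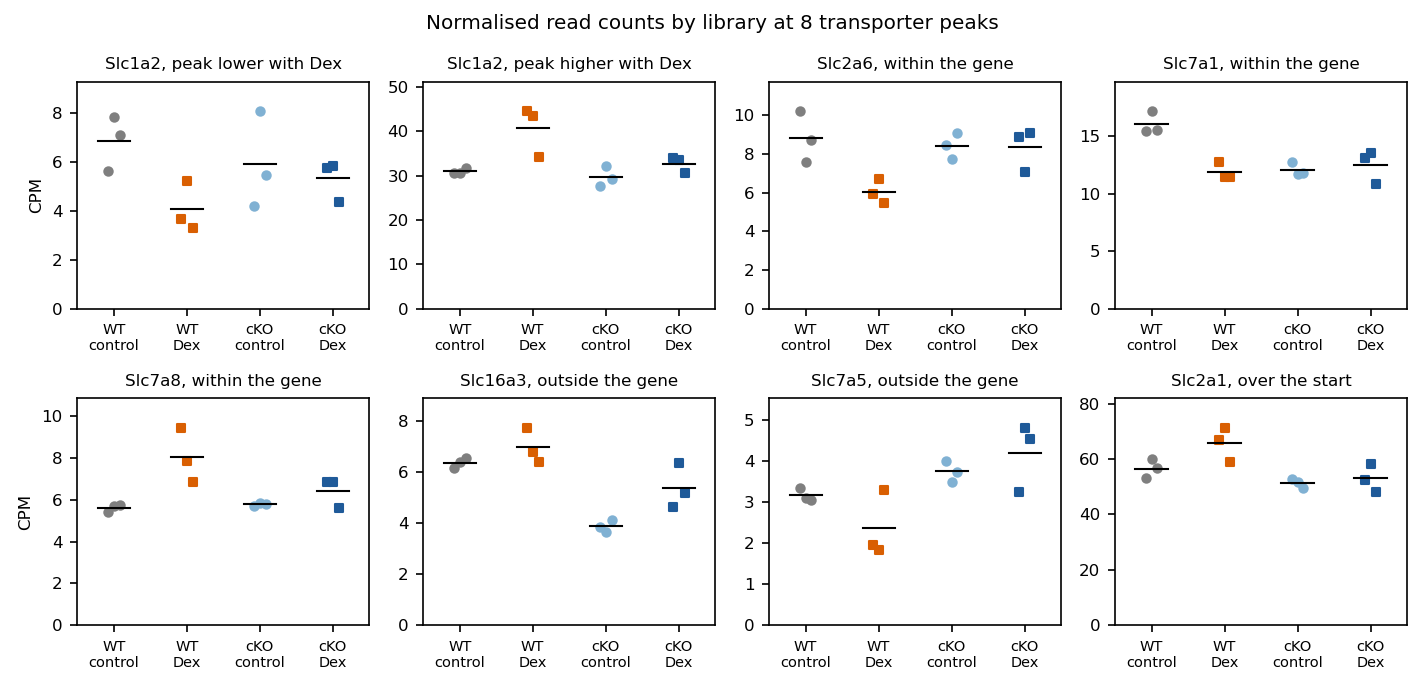
Normalised read counts (CPM, linear axes from 0) at 8 transporter peaks, 1 point per library and a bar at each group mean (n = 3). WT control and WT Dex do not overlap at the Slc1a2, Slc2a6, Slc7a1 and Slc7a8 peaks, and none of the 8 passed the adjusted threshold in any comparison.

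At the 14 T cell transporters, intervals were taken at 1 peak per gene with TMM scaling, and they cover only the spread among these libraries. In WT cells the 95% intervals of all 14, each taken alone, lay between 0.598-fold and 1.35-fold of control. The smallest edgeR adjusted p was 0.541. The median of the 14 estimates was -0.008 with TMM (6 positive) and -0.095 with loess offsets (5 positive). Without WT Dex replicate 3 it was 0.074 (12 positive). The Slc2a1 start peak stood at 53.2, 59.9 and 56.7 CPM in untreated WT libraries and 67.0, 71.4 and 59.0 CPM in WT after Dex, where WT Dex replicate 3 overlapped the controls. Its log2 was 0.22 ± 0.10 and it was the only one of the 14 with an unadjusted p under 0.05. The Slc7a5 peak had a log2 of -0.07 ± 0.09 (interval -0.25 to 0.12), the Slc3a2 start -0.05 ± 0.10 and the Slc7a1 start -0.09 ± 0.10. Slc16a1 was at -0.00 ± 0.11 and Slc16a3 at 0.18 ± 0.13. The widest interval, -0.74 to 0.33, belonged to Slc7a11, whose start peak held only 1.7 to 2.8 CPM per library.

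**Figure D3:**
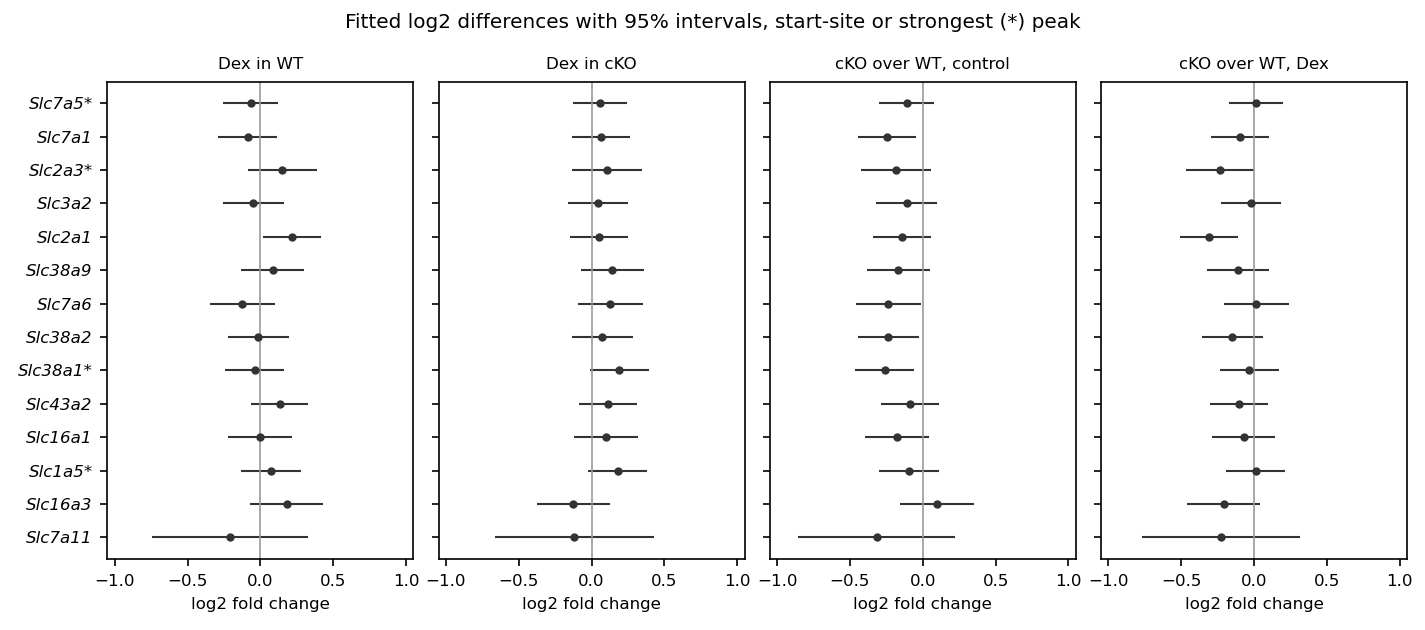
Fitted log2 fold changes (points) with 95% intervals (lines) at the start-site or strongest (asterisk) peak of 14 transporters in 4 comparisons, 3 libraries per group. For Dex in WT all intervals but that of Slc2a1 include 0, and in control cells the estimates for cKO over WT, drawn with TMM scaling, are negative for 13 of 14, against 8 of 14 with loess offsets.

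In cKO cells, Dex called 0 of 738 member peaks and 0.00296% of all (6 peaks). An unadjusted p under 0.05 was reached by 39 member peaks (5.28%), against 5.84%. On summed counts 0 of 61 members were called, with 0.00576% of genes, and 5 (8.20%, against 8.67%) had an unadjusted p under 0.05. The smallest edgeR adjusted p among member peaks was 0.791, at a peak within Slc2a3 on chromosome 6 from 122739783 to 122740529. It stood at 2.16, 2.14 and 2.58 CPM in cKO control and at 3.62, 3.62 and 4.07 CPM in cKO Dex, without overlap (log2 0.72 ± 0.22), while both WT groups lay between 3.30 and 3.78 CPM. Of the other 3 nearest peaks, those of Slc16a10 (0.44 ± 0.15) and Slc38a6 (0.39 ± 0.14) were higher and that of Slc7a15 (-1.31 ± 0.47) lower in the estimate, with an adjusted p of 0.837 or 0.838. On summed counts Slc38a2 (log2 0.17 ± 0.07), Slc38a1 (0.15 ± 0.07) and Slc43a1 (-0.24 ± 0.11) came nearest, each with an edgeR adjusted p of 0.58. Without cKO Dex replicate 3, calls over all peaks went from 6 to 335, still with 0 member peaks, and Slc38a8 was called on summed counts.

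The interaction tested whether WT and cKO cells differed in their Dex effect. It called 0 of 738 member peaks, with 0.0276% of all peaks, and 0 of 61 members on summed counts, with 0.0634% of genes. An unadjusted p under 0.05 was reached by 43 member peaks (5.83%, against 5.65%) and by 4 members on summed counts (6.56%, against 4.48%). DESeq2 called 0 members here and 0 for Dex in cKO. The smallest adjusted p, 0.466, came from a 209-base peak of Slc43a1 at 0.08 to 1.10 CPM per library, too few counts to read as a direction. A peak in Slc38a2, which encodes a carrier induced by amino acid starvation, had an interaction of -0.83 ± 0.28 (edgeR adjusted p 0.650). It stood at 6.56, 4.78 and 6.43 CPM in untreated WT libraries and 5.42, 3.24 and 4.2 CPM in WT after Dex. In cKO the values were 3.78, 4.54 and 3.48 CPM untreated and 5.37, 5.04 and 4.86 CPM after Dex. The Slc7a1 peak described above had an interaction of -0.49 ± 0.19 (adjusted p 0.763), and the Slc2a9 peak, at 0.23 to 2.0 CPM per library, had 2.28 ± 0.71 (adjusted p 0.574). Without cKO Dex replicate 3 the Slc2a9 value was 3.62 and was called (edgeR adjusted p 0.009). On summed counts Slc43a1 (0.39 ± 0.15), Slc38a1 (-0.24 ± 0.09) and Slc7a10 (0.34 ± 0.16) came nearest, with edgeR adjusted p of 0.872 or above. Whether Slc38a1 was called depended on the fit. It passed with total counts (edgeR adjusted p 0.039), loess offsets (0.0145) and the share of counts in the strongest peaks as a covariate (0.00288).

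The genotypes were compared next without added hormone. In control cells 0 of 738 member peaks were called by edgeR and 0 by DESeq2, with 0.0104% of all peaks (21), and 56 (7.59%, against 7.69%) had an unadjusted p under 0.05. Of these, 20 were higher in cKO, against 3.44% of all peaks, and 36 lower, against 4.25%. The peak with the smallest adjusted p lay 7.3 kb outside the lactate exporter gene Slc16a3, on chromosome 11 from 120940970 to 120941333. It stood at 6.18, 6.41 and 6.56 CPM in WT control and 3.84, 3.65 and 4.13 CPM in cKO control, without overlap (log2 -0.73 ± 0.18, edgeR adjusted p 0.303). In Dex-treated cells it stood at 7.75, 6.81 and 6.41 CPM in WT and 4.64, 6.38 and 5.18 CPM in cKO, so that the lowest WT library was barely above the highest cKO library. The next 3 were a peak within Slc16a10 (-0.95 ± 0.25), the weak Slc2a9 peak (1.76 ± 0.53) and a peak within Slc1a7, a glutamate carrier gene (0.94 ± 0.28), with edgeR adjusted p of 0.332 to 0.404.

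On summed counts, with 0.0231% of genes called, 0 of 61 members were called, DESeq2 called 1 (Slc38a2), and 9 (14.8%, against 17.8%) had an unadjusted p under 0.05. That background rests on 4 genes, a count that ran from 2 to 534 when 1 library was left out (534 without cKO Dex replicate 3, 314 without WT Dex replicate 3). It was 158 with DESeq2, 1223 with a replicate block and 1324 with only the groups compared. Slc38a2 had the smallest adjusted p, 0.108, with 114.9, 128.1 and 122.7 CPM in WT control and 107.2, 105.6 and 98.6 CPM in cKO control (log2 -0.23 ± 0.07). Slc38a1 (log2 -0.19 ± 0.07, adjusted p 0.14) and Slc7a1 (-0.17 ± 0.07, adjusted p 0.16) followed. The median over all genes in this comparison was itself -0.08, and over members -0.07. Both depend on the scaling, being -0.00 and 0.01 with total counts and 0.00 and 0.01 with loess offsets. With the share of counts in the strongest peaks as a covariate the Slc38a2 value was -0.15 (edgeR adjusted p 0.244), and without WT Dex replicate 3 or without cKO Dex replicate 3 Slc38a2 was called.

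At the 14 T cell transporters the estimate was negative for 13 with TMM and with total counts, for 10 with the share covariate and for 8 with loess offsets, where Slc1a5, Slc2a1, Slc3a2, Slc43a2 and Slc7a5 were positive beside Slc16a3. With TMM an unadjusted p under 0.05 was reached by 4 (Slc38a1, Slc7a1, Slc38a2 and Slc7a6), with a smallest edgeR adjusted p of 0.537. Summed over the 14 peaks, accessibility was 593.5 ± 13.8 CPM (SD, n = 3) without and 601.2 ± 51.8 CPM with Dex in WT. In cKO it was 530.9 ± 15.7 CPM without and 564.4 ± 44.2 CPM with Dex. Of the 14 peaks, 13 belong to the strongest 10%, whose share of counts, given above, was also lower in cKO than in WT libraries on average. No batch is named in the labels, and within-batch values were therefore not computed.

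In Dex-treated cells 0 of 738 member peaks differed between genotypes at the adjusted threshold, with 0.17% of all peaks called (DESeq2 called 1, the Slc2a1 start peak), and 58 (7.86%, against 8.35%) had an unadjusted p under 0.05. On summed counts 0 of 61 members were called, with 0.962% of genes, and 2 (3.28%) had an unadjusted p under 0.05, against 16.5%. The 167 genes behind that background became 39 without WT Dex replicate 1, 49 without WT Dex replicate 2 and 1569 without WT Dex replicate 3. The Slc2a1 start peak, at 52.6, 58.4 and 48.3 CPM in cKO Dex, lay below all 3 WT Dex libraries given above (log2 -0.31 ± 0.10, edgeR adjusted p 0.262), and with the share covariate its log2 was -0.17. A peak 3.4 kb outside Slc7a5 (chromosome 8, 121877021 to 121878423) leaned the other way. It stood at 1.95, 1.84 and 3.29 CPM in WT Dex and at 3.25, 4.82 and 4.54 CPM in cKO Dex, WT Dex replicate 3 overlapping the cKO libraries (log2 0.82 ± 0.23, edgeR adjusted p 0.146). Without WT Dex replicate 3 its adjusted p was 0.031 (log2 1.14). A peak 2.3 kb outside Slc2a3 had a log2 of -0.57 ± 0.16, and weak peaks of Slc38a4 (-1.87 ± 0.56) and Slc7a15 (1.53 ± 0.45) followed, with edgeR adjusted p of 0.162 to 0.195. On summed counts Slc16a13 (-0.24 ± 0.10), Slc43a1 (-0.25 ± 0.11) and Slc2a3 (-0.15 ± 0.08) came nearest.

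**Figure D4:**
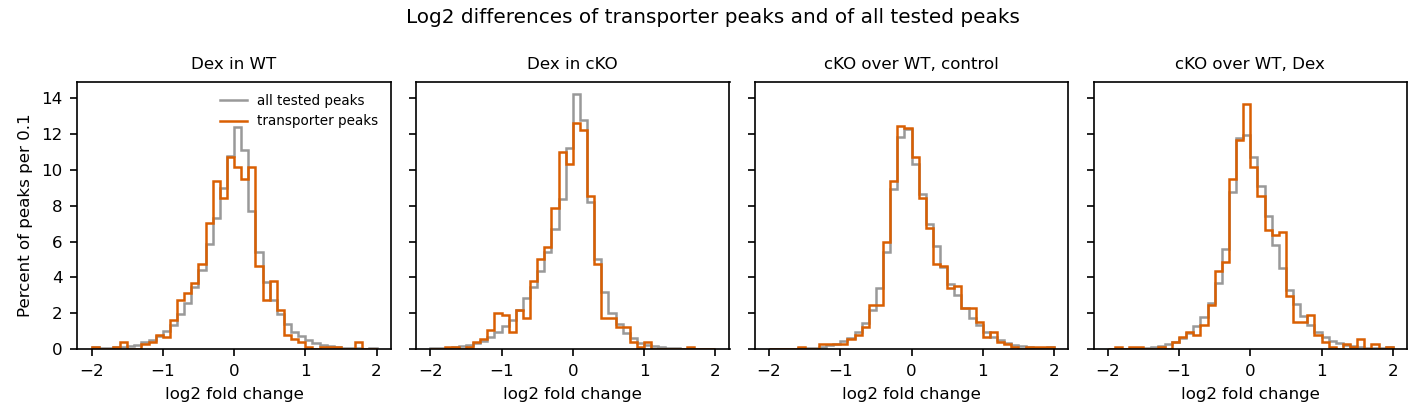
Share of tested peaks (percent) in each 0.1-wide bin of fitted log2 fold change, drawn from -2 to 2, for transporter peaks (738) and all tested peaks (202587) in 4 comparisons. The outlines lie close together, with member medians of -0.03, -0.06, 0.01 and -0.02 from left to right.

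Groups that did not overlap were about as frequent among member peaks as elsewhere. For Dex in WT, 39 member peaks (5.28%) had all Dex libraries above all controls, against 6.96% of all tested peaks, and 53 (7.18%) had them all below, against 6.90%. For genotype in control cells, 55 (7.45%, against 6.91%) were higher and 63 (8.54%, against 7.60%) lower in cKO. The nearest peaks inside the 50 kb limit, of Slc38a2 at 48.4 kb (0.466 CPM) and Slc16a1 at 49.1 kb (3.22 CPM), had a log2 for Dex in WT of -1.23 ± 0.67 and -0.53 ± 0.24. Those just outside, near Slc38a1 at 50.6 kb (14 CPM) and Slc7a1 at 51.2 kb (4.12 CPM), had 0.05 ± 0.13 and -0.19 ± 0.20.

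Genes around the transporters gave called peaks. Other gene lists of the same pathways were counted in the same fit, against the background for Dex in WT, where 0.42% of all peaks were called higher and 0.114% lower. The lists were chosen with earlier results of these data known, so a count above that background is a description and not a test. Of 10 partners and regulators of transporters, Txnip and Hif1a had higher peaks with Dex in WT, 6 of 197 peaks in all, with 0 lower. Of 18 genes of amino acid metabolism, Got1 had 2 higher peaks of 214, and of 25 genes of amino acid sensing and mTORC1, Fnip1 had 1 of 355. None of 252 peaks of 23 glycolysis and lactate genes was called in any of the 5 comparisons. In cKO cells Dex called 0 peaks of the 4 lists, where 0.00296% of all peaks (6) were called, so a count of 0 is near that share. On summed counts, Hif1a alone was called for Dex in WT, where 1.24% of genes were called. Between genotypes in Dex-treated cells, with 0.962% of genes called, the called list genes were Txnip, Rragb, Hif1a and Got1, all lower in cKO. That direction was the common one, since only 6.59% of all genes called there were higher in cKO. It also depended on the scaling, the share being 51.4% with total counts and 53.8% with loess offsets. The other 3 comparisons called none on summed counts. The shares of all genes called were 0.00576% for Dex in cKO, 0.0634% for the interaction and 0.0231% for genotype in control cells.

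Txnip encodes a protein that restrains glucose uptake by drawing GLUT1 and GLUT4 from the cell surface, and is a known glucocorticoid target. Its peak 6.5 kb outside the gene (chromosome 3, 96551008 to 96551858) stood at 8.92, 10.8 and 11.3 CPM in untreated WT libraries and 27.2, 23.0 and 21.2 CPM in WT after Dex. All WT Dex libraries lay far above the other 9, which ran from 7.38 to 13.7 CPM (log2 1.18 ± 0.14, edgeR adjusted p 2.1e-08). The peaks at 2.5 kb and 0.46 kb rose by a log2 of 1.35 ± 0.18 and 1.11 ± 0.18. In Dex-treated cells all 3 were lower in cKO than in WT (log2 -0.95 ± 0.14, -0.98 ± 0.17 and -0.94 ± 0.18), a direction in which 0.13% of all peaks were called. These comparisons share the WT Dex libraries, and the Txnip interaction was not called. The genotype call at the 0.46 kb peak was lost without WT Dex replicate 1 (edgeR adjusted p 0.0758).

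Hif1a encodes the oxygen-regulated subunit of the factor that turns on Slc2a1 and Slc16a3 in hypoxia, and it favours Th17 differentiation. Its peak 11.4 kb outside the gene (chromosome 12, 73889184 to 73890618) stood at 9.31, 6.41 and 7.92 CPM in untreated WT libraries and 19.2, 14.7 and 15.7 CPM in WT after Dex. The cKO libraries gave 8.82, 9.39 and 9.29 CPM untreated and 9.68, 9.09 and 9.82 CPM after Dex, so only WT Dex stood apart. The Dex effect in WT was a log2 of 1.08 ± 0.14 (edgeR adjusted p 7.1e-07), and it was the only peak of the 4 lists with a called interaction (1.03 ± 0.21, edgeR adjusted p 0.0241), a direction in which 0.0271% of all peaks were called. That interaction passed in only 4 of 12 fits that left out 1 library: its adjusted p was 0.237 and 0.10 without WT control replicate 2 or 3, and 0.249 without WT Dex replicate 1. Leaving out cKO control replicate 1, 2 or 3 gave 0.0505, 0.0735 and 0.0996, and the adjusted p was 0.0946 and 0.0605 without cKO Dex replicate 1 or 2. The Hif1a peaks at 13.04 kb and 21.1 kb rose with Dex in WT by 0.57 ± 0.10 and 0.69 ± 0.12, the first from 57.2, 60.8 and 57.6 CPM to 94.99, 88.4 and 78.1 CPM. In Dex-treated cells the 11.4 kb peak was lower in cKO (-0.79 ± 0.14), a call lost without WT Dex replicate 1 (edgeR adjusted p 0.0679). So was a peak 6.3 kb outside the gene (-0.51 ± 0.11), which was not called for Dex in WT. That genotype call was lost without WT Dex replicate 1 or 2 or cKO Dex replicate 1 (edgeR adjusted p 0.193, 0.0817 and 0.265), and with only the groups compared (0.0722). WT libraries there stood at 32.0, 35.3 and 28.6 CPM untreated and 36.4, 34.1 and 34.6 CPM after Dex, with overlap. The cKO libraries stood at 28.7, 25.5 and 26.1 CPM untreated and 21.6, 28.3 and 24.0 CPM after Dex.

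Got1 encodes the cytosolic enzyme that exchanges amino groups between aspartate and glutamate. Its peak from 43520354 to 43521220 on chromosome 19 stood at 2.82, 3.79 and 3.46 CPM in untreated WT libraries and 7.94, 7.70 and 7.20 CPM in WT after Dex, without overlap (log2 1.16 ± 0.20, edgeR adjusted p 0.00016). A neighbouring Got1 peak (0.53 ± 0.12) and the peak in Fnip1, a partner of folliculin in amino acid sensing (0.57 ± 0.13, adjusted p 0.0186), were weaker calls. Both were lost without WT control replicate 1 or 2 and without WT Dex replicate 1 or 2, with edgeR adjusted p of 0.1002 to 0.265 at Got1 and 0.128 to 0.159 at Fnip1. The cKO libraries at the first Got1 peak ran from 3.34 to 6.46 CPM, below all WT Dex libraries. At the neighbouring Got1 peak WT Dex stood at 26.5, 29.6 and 22.7 CPM and cKO Dex at 20.1, 23.6 and 17.1 CPM, with overlap. At Fnip1 WT Dex stood at 18.7, 18.1 and 15.6 CPM and cKO Dex at 18.0, 13.7 and 15.1 CPM, also with overlap.

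Counts summed per gene gave the following values. Hif1a stood at 326, 352 and 337 CPM in untreated WT libraries and 449, 425 and 388 CPM in WT after Dex, without overlap (log2 0.31 ± 0.06, edgeR adjusted p 0.00283). That call was lost without WT Dex replicate 1 (adjusted p 0.0951), with peaks within the gene only (0.279) and with a 10 kb limit (0.254). In Dex-treated cells Hif1a was lower in cKO, at 350, 363 and 328 CPM (log2 -0.28 ± 0.06, edgeR adjusted p 0.017). Rragb, which encodes a Rag GTPase that relays amino acid supply to mTORC1, stood at 27.4, 27.1 and 22.6 CPM in WT Dex and 20.01, 19.4 and 17.6 CPM in cKO Dex (log2 -0.43 ± 0.10, edgeR adjusted p 0.0243). Txnip (log2 -0.50 ± 0.09, edgeR adjusted p 0.00394) and Got1 (-0.25 ± 0.07, adjusted p 0.0495) were the others. All 4 genotype calls were lost without WT Dex replicate 1, with edgeR adjusted p of 0.0689 (Txnip), 0.257 (Rragb), 0.279 (Hif1a) and 0.342 (Got1). Txnip was also lost without cKO control replicate 2 (0.0523) or cKO Dex replicate 3 (0.0593), with total counts (0.0659), loess offsets (0.068) and the share covariate (0.199), and with peaks within the gene only (0.306). Rragb was lost without WT Dex replicate 2 (0.193) or cKO Dex replicate 3 (0.0781) and with the share covariate (0.0751). Hif1a was lost without WT Dex replicate 2 (0.124) or cKO Dex replicate 1 (0.0531), with the groups compared alone (0.0522), with peaks within the gene only (0.184) and with a 10 kb limit (0.0719). Got1 passed in only 3 of 12 fits that left out 1 library, those without WT Dex replicate 3, cKO Dex replicate 2 or cKO control replicate 2. It was also lost with DESeq2 size factors in edgeR (adjusted p 0.0772), without the count filter (0.0632) and with only the groups compared (0.134).

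**Figure D5:**
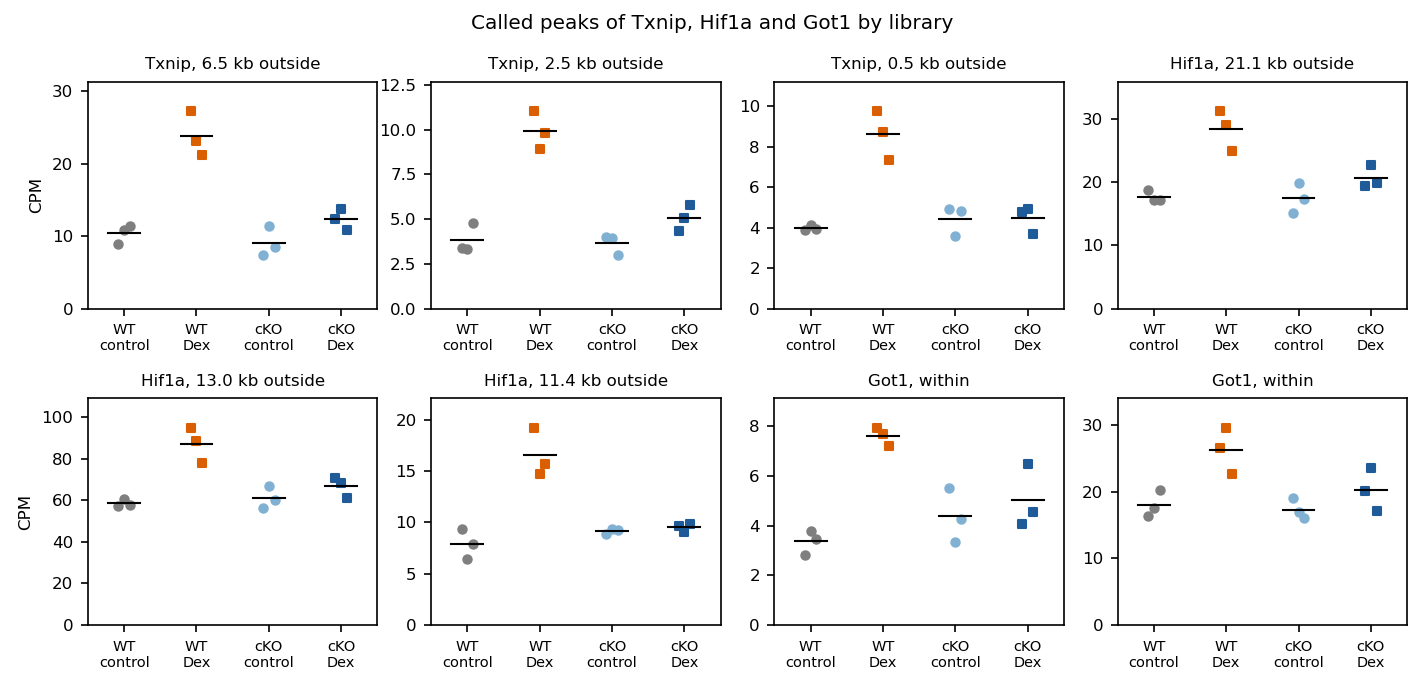
Normalised read counts (CPM, linear axes from 0) at the 8 peaks of Txnip, Hif1a and Got1 called for Dex in WT, 1 point per library and a bar at each group mean (n = 3). WT Dex lies above WT control at all 8 without overlap.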

How the data were processed

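ATAC-seq counts of 12 libraries (4 groups, n = 3) were analysed. The values are raw whole-number counts per peak for 1 joint peak set, as deposited by the authors, with no normalisation per the file headers. The build was mm10, and featureCounts 2.1.1, Genrich 0.6.1, Bowtie2 2.3.5, Trimmomatic 0.39, Picard 2.18.27, deepTools 3.5.6 and SAMtools 1.3 are listed in the submitters' processing notes. Which did what, how reads were filtered or shifted for the transposase cut, and whether libraries were pooled for peak calling is not given in these sources. Joint peaks that include Dex-treated libraries can favour sites open there. The labels do not tie replicates to separate animals or cultures, so the p-values cover only the spread seen among these samples, which may be technical, and PCR copies are not independent molecules.

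Peaks passing filterByExpr (minimum count 10, minimum total 15) were scaled by TMM and fitted in edgeR 4.0.16 (R 4.3.3) with 1 coefficient per group (8 residual degrees of freedom, robust quasi-likelihood F-test, two-sided). P-values were adjusted by Benjamini-Hochberg over all 202587 peaks, and a peak or gene with an adjusted p under 0.05 is called. Counts summed per gene were fitted likewise over 17353 genes. SE is the log2 fold change divided by the square root of F, and CPM uses TMM-scaled library sizes. The steps were tested on simulated data. The median biological coefficient of variation was 24.7% over peaks and 7.11% over gene sums.

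Gene spans and symbols came from RefSeq (GRCm38.p6) and a gene given by position need not be the one a peak regulates. Members, lists and tests were chosen with earlier results of these data known. Named were the called features, in each comparison the peaks with the smallest p (8 for Dex in WT, 4 otherwise) and gene sums (5 or 3), the 10 strongest peaks and loci, members without a peak, a set of 14 T cell transporters, and called genes of the 4 lists. Slc2a8 and Slc7a3, as ends of the order per kb, and the lowest or highest markers of a list were chosen after their values were seen. No replicate pair looked like 1 library deposited again (chi-square per degree of freedom 2.05 to 3.69). Alternatives used DESeq2 1.42.0, other scalings, filters and assignments, a replicate block and leaving out each library.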

Additional observations from a re-analysis of the deposited data

How the results depend on the processing

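For Dex in WT, the count of member peaks called was 5 with total-count scaling, 5 with loess offsets, 1 with DESeq2, 2 with only the groups compared, 5 with the share of counts in the strongest peaks as a covariate, and 0 to 2 when 1 library was left out. These were peaks of Slc1a2, Slc2a6, Slc2a9, Slc7a1, Slc38a10 and, without WT Dex replicate 1, Slc16a12. For genotype in Dex-treated cells it was 1 with loess offsets (Slc38a10), 1 with DESeq2 (Slc2a1), 2 with the share covariate (Slc1a2 and Slc1a5) and 0 to 1 with a library left out (Slc7a5 without WT Dex replicate 3). For the interaction it was 0 to 1 with a library left out (Slc2a9 without cKO Dex replicate 3). For Dex in cKO and genotype in control cells it was 0 under every alternative run. On summed counts, Dex in WT called 2 members with total counts, 2 with loess offsets (Slc38a1 and Slc7a1 in each) and 3 with the share covariate, and Dex in cKO 0 to 1 with a library left out. The interaction called 1 with total counts, 1 with loess offsets (Slc38a1 in each), 2 with the share covariate (Slc38a1 among them) and 0 to 1 with a library left out. Genotype in control cells called 1 with DESeq2, 5 with only the groups compared and 0 to 1 with a library left out, and genotype in Dex-treated cells called 4 with the share covariate. The causes were not tested.

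Among all peaks called for Dex in WT, 78.7% were higher, against 58.7% with total counts, 58.9% with loess offsets and 47.7% with the share covariate. All calls for Dex in WT ran from 539 to 1463 with a library left out and were 1757 with total counts, 2142 with loess offsets and 2244 with the share covariate. All genes called on summed counts ran, with a library left out, from 92 to 367 for Dex in WT (216 with all), 0 to 368 for Dex in cKO (1), 4 to 58 for the interaction (11), 2 to 534 for genotype in control cells (4) and 39 to 1569 for genotype in Dex-treated cells (167). None of the 56 named values of members and list genes changed sign in the alternatives. These values were chosen as called or for a small p in the same libraries, a choice that itself favours stable signs. Among the 70 start or strongest peak values, signs did change. For genotype in Dex-treated cells, 11 of 14 were negative with TMM, 5 with loess offsets and 5 with the share covariate. For Dex in cKO, 12 of 14 were positive with TMM, 7 with loess offsets and 7 with the share covariate.

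The replicate numbers did not meet the rule for pairing, which asks for a correlation of deviations over 0.1 in every same-numbered pair: 5 of 18 had one (range -0.198 to 0.282, median 0.0567, against -0.0165 for other numbers). The same number correlated best in 18 of 36 combinations, each with 3 numbers to choose from. With a replicate block the member calls were 2 peaks for Dex in WT (both Slc1a2), 1 peak for genotype in Dex-treated cells (Slc2a1) and 4 members on summed counts for genotype in control cells (Slc2a8, Slc38a1, Slc38a2 and Slc7a1). All peaks called with the block were 1747 for Dex in WT and 1017 for genotype in Dex-treated cells, and all genes called on summed counts for genotype in control cells went from 4 to 1223. Few counts limit the precision at weak peaks, such as that of Slc43a1 at 0.08 to 1.10 CPM.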
